A study of Homo sapiens with 18 samples.

Results

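In SW620 cells, 262 genes stood at 0.6 or less of their Ctrl level when the cells were taken 1 h after a heat shock of 1 h. SW620 is a line of human colon cancer cells. The cells carried a scramble siRNA or siRNA against Lonp1 (siLonp1), a mitochondrial protease. Ctrl cells stayed at 37 °C, HS cells spent 1 h at 42 °C, and HS+REC cells spent the same hour at 42 °C and a further 1 h of recovery at 37 °C. RNAseq gave 3 libraries in each of the 6 groups, all from the same line, described in the methods as independent biological replicates. Which siRNA against Lonp1 was transfected for RNAseq is not given in the sources used here.

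The genes were chosen by their own values in the scramble arm, in CPM, the count of a gene scaled to 1000000 counts of its library. The Ctrl mean had to be at least 5 CPM and the HS+REC mean at most 0.6 of it. Symbols that begin with any of 10 prefixes of chaperone, histone and immediate early gene families (HSP, DNAJ, BAG, HIST, KLF, DUSP, FOS, JUN, EGR and IER) were left out, which removed FOSL1, KLF16 and IER5L. The rule took 262 of 26485 gene symbols, and all 262 were among the 12832 genes tested. Since the Ctrl and HS+REC scramble libraries made the choice, their values are given as a description with no test. Tests are given in the siLonp1 arm, whose libraries took no part, and between the arms in HS.

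In mammalian cells, heat activates the transcription factor HSF1, which raises the chaperone genes, while transcription of many other genes is reduced. The level of an mRNA then depends on how fast it is made and how fast it is degraded, so mRNAs with a short life can change within an hour. A fall in CPM is a fall in the share of a library. In bulk RNA, fewer cells with a transcript and less of it per cell cannot be told apart, and the RNA content of the cells was not measured.

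Library totals ran from 30815860 to 47279297 counts, and the lowest count of any of the 262 genes in any library was 42. LONP1 was at 233 ± 5.73 CPM in Ctrl scramble and at 20.5 ± 1.79 CPM in Ctrl siLonp1 (mean ± SD, n = 3). In HS it fell with siLonp1 (log2 fold change -4.19, SE 0.08, edgeR quasi-likelihood test, Benjamini-Hochberg adjusted p = 6.4e-21). The epithelial markers EPCAM, CDH1, KRT8, KRT18, KRT19 and VIL1 were at 84.4 CPM or more in every library. Of the other colon markers, CDX2 ranged from 9.64 to 32.1 CPM, KRT20 and LGALS4 did not pass 1.21 and 0.435 CPM, and CDX1 was at 0. The markers of other cells, PTPRC, PECAM1, COL3A1 and ALB, did not pass 0.411 CPM, and COL3A1 was at 0 in every library. COL1A1, the collagen that also marks fibroblasts, went from 9.70 ± 1.09 CPM in Ctrl to 30.0 ± 0.637 in HS+REC in scramble and from 9.71 ± 0.559 to 31.6 ± 1.18 in siLonp1 (mean ± SD, n = 3), and its part in the results was not tested.

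The lowest HS+REC to Ctrl ratio in the scramble arm was that of PDGFA, a growth factor for mesenchymal cells, at 0.235. Among the 12 lowest ratios were also HAS3, which makes hyaluronan, at 0.271, the actin binding TAGLN at 0.288, the plasminogen activator PLAU at 0.322 and the focal adhesion protein TNS4 at 0.327. With them stood the guidance molecules RGMA, EPHA4 and SEMA4C (0.345, 0.356 and 0.357), the zinc finger genes ZNF792, ZBTB47 and ZNF443 (0.267, 0.278 and 0.368) and LOC100190940 (0.373). The median ratio was 0.536, and 85 genes were at 0.5 or less. Just inside the limit were C16orf54 (0.5993), the receptor GPR3 (0.5995) and the riboflavin transporter SLC52A3 (0.5998). Just outside it were HOXB4 (0.6001), SLC25A25-AS1 (0.6003) and FAM86EP (0.6007).

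The 262 genes differed widely in abundance. Their Ctrl scramble means ran from 5.01 to 2095 CPM, with a median of 35.9. Of them, 45 were under 10 CPM, 175 between 10 and 100, and 42 at 100 or above. The 8 highest were TUBB and TUBB4B (beta tubulins), SLC2A1 (the glucose transporter GLUT1), LGALS3BP (a secreted glycoprotein), VCL (vinculin, which ties adhesions to actin), TFRC (the transferrin receptor), KPNA2 (a nuclear import factor) and MAT2A (which makes S-adenosylmethionine). Their ratios lay between 0.457 for MAT2A and 0.597 for KPNA2. TUBB and TUBB4B have close paralogs, and how reads shared by several genes were counted is not given in the sources used here.

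The sequence before the annotated start is shown for 3 of the genes that carry the patterns described here, PDGFA and HAS3, which went on falling in the recovery hour, and MAT2A, which in siLonp1 was lowest at the end of the heat. The 150 bases just upstream of the RefSeq start are given 5′ to 3′ on the strand of the gene (GRCh38.p14). Capitals mark the GC box GGGCGG, the CCAAT box and the E-box CACGTG on either strand.
PDGFA (chr7:520227-520376, minus strand): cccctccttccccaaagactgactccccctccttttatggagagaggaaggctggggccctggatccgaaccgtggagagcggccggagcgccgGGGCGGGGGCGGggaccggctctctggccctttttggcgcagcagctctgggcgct
HAS3 (chr16:69107390-69107539, plus strand): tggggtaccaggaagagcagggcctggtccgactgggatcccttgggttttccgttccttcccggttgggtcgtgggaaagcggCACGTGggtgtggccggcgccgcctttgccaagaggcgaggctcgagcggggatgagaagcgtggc
MAT2A (chr2:85539018-85539167, plus strand): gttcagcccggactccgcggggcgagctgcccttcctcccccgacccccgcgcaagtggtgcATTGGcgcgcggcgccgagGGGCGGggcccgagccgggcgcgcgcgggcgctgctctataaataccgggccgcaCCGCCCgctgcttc
PDGFA had 2 GC boxes in this window and MAT2A 2 with 1 CCAAT box, while HAS3 had none of either and 1 E-box.

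RefSeq promoter windows of 300 bases were at hand for 201 of the 262 genes and for 10188 of the genes tested. A GC box stood in 80.1% of the 201 and in 71.1% of the 10188, and their median GC content was 70.7% and 65.7%. The CCAAT box was found in 35.8% against 36.7%, the TATA box TATAAA in 8.96% against 5.42%, the AP-1 site TGACTCA in 5.47% against 3.03%, and the E-box in 13.4% against 10.3%. The heat shock element GAANNTTC stood in 2.99% against 4.45%, and the ETS site CCGGAAGT in 3.98% against 8.98%. Both strands were searched, and the GC box, the E2F site and the BMP-SMAD element can share bases. The CRE TGACGTCA (3.98% and 3.31%), the E2F site TTTGGCGC (1.49% and 1.14%), the TCF site CTTTGAT (1.99% and 1.35%) and the BMP-SMAD element GGCGCC (31.8% and 31.2%) completed the search. These shares are descriptions of letters in a window, and no test was made on them.

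In siLonp1, 260 of the 262 genes fell from Ctrl to HS+REC (99.2%; edgeR quasi-likelihood test, Benjamini-Hochberg FDR of at most 0.05 over all genes tested), where 26.6% of all 12832 genes did. Of the 262, 0 rose in the edgeR test and 0 had a log2 fold change above 0, whereas 24.6% of all genes rose. With a fold change above 2 as well, 105 fell (40.1%), against 1.20% of all genes. The median log2 fold change of the 262 was -0.92, and that of all genes tested 0.00. Every HS+REC library lay under every Ctrl library for 261 of the genes (99.6%), a separation that 37.0% of all genes tested showed. In CPM the HS+REC to Ctrl ratio in siLonp1 ran from 0.251 to 0.830, and 216 of the 262 genes were at or under 0.6 there too.

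At the end of the heat, before recovery, 214 of the 262 genes had already fallen in siLonp1 (81.7%, background 22.1%), 46 of them by more than 2-fold (17.6%, background 1.15%), and 4 had risen (1.53%, background 20.2%). The median log2 fold change from Ctrl to HS was -0.59, against 0.00 for all genes tested. HS and HS+REC were compared with the same Ctrl siLonp1 libraries, so these values stand side by side and neither supports the other. From HS to HS+REC, 150 of the genes fell (57.3%, background 15.6%) and 20 rose (7.63%, background 16.3%). The median was -0.30 against -0.01, and these calls were made whether or not a gene had fallen in HS. The summed level of the genes went from 22292 to 22821 CPM in the Ctrl siLonp1 libraries to 14274 to 14976 in HS and 10937 to 12330 in HS+REC. In the scramble arm the sums were 19289 to 19563, 13142 to 14302 and 9838 to 11008 CPM.

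**Figure D1:**
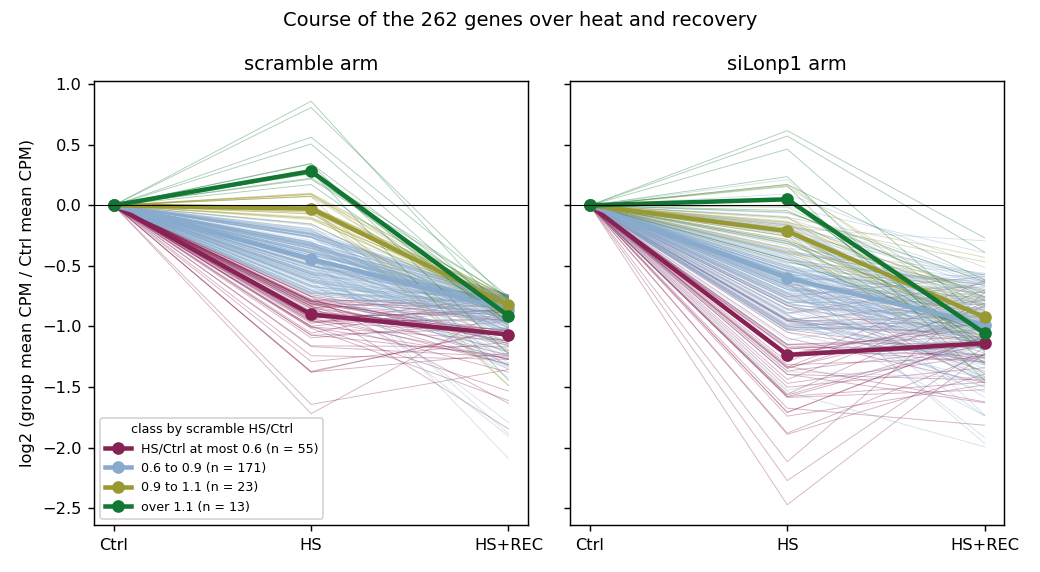
Lines show the log2 ratio of each group's mean CPM to the Ctrl mean of its arm for the 262 genes, by condition (x axis) in scramble and siLonp1. Thick lines are medians of 4 classes set by the HS to Ctrl ratio in scramble, and in siLonp1 these medians lie apart at HS and close together at HS+REC, while in scramble the classes and the rule set both.

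The genes differed in when they fell. They were put in 4 classes by their HS to Ctrl ratio in the scramble arm, and the classes were then read in the siLonp1 arm, which shares no library with it. In the class of 55 genes at or under 0.6, all 55 fell from Ctrl to HS in siLonp1, with a median log2 fold change of -1.19. In the recovery hour 8 of these fell further and 19 rose, against 15.6% and 16.3% of all genes tested, so that the share that fell was near the background, and the median from Ctrl to HS+REC was -1.06. Of the 171 genes between 0.6 and 0.9, 150 fell in HS and 107 fell in recovery. Their medians were -0.55 in HS and -0.90 in HS+REC. Of the 23 genes between 0.9 and 1.1, 7 fell in HS and 22 fell in recovery, with medians of -0.16 and -0.84. Of the 13 genes over 1.1, 4 rose and 2 fell in HS, all 13 fell in recovery and 12 were lower than Ctrl in HS+REC. Their medians were 0.10 and -0.97. In HS 22.1% of all genes tested fell and 20.2% rose, so the 7 of 23 and the 2 of 13 that fell were near the background.

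**Figure D2:**
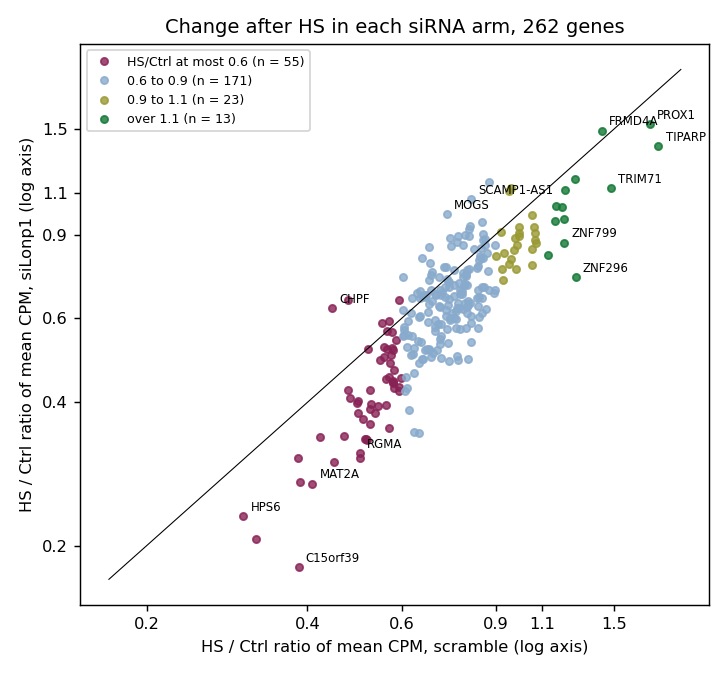
Each point is 1 of the 262 genes, with its HS to Ctrl ratio of mean CPM in scramble (x axis) and in siLonp1 (y axis), both on log axes. Colours are the classes by the scramble ratio, the line marks equal ratios, and C15orf39 has the lowest ratio in siLonp1 (0.1802).

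PDGFA fell mostly during recovery, and HAS3 fell in both hours, by more on the log2 scale in recovery. PDGFA was at 98.5, 99.7 and 97.0 CPM in the Ctrl scramble libraries, 75.8, 77.4 and 71.6 in HS and 23.0, 23.0 and 23.3 in HS+REC. In siLonp1 it was at 121, 124 and 132 CPM in Ctrl, 113, 109.7 and 105 in HS and 38.8, 37.3 and 37.6 in HS+REC. No library of one condition overlapped with another within an arm, and the step down lay between HS and HS+REC (log2 fold change -1.49, SE 0.05, edgeR adjusted p = 1.1e-15). The fall from Ctrl to HS was small (log2 fold change -0.16, SE 0.05, edgeR adjusted p = 0.019) and was not called with no filter on low counts (adjusted p = 0.0898), with only the groups compared (0.0638), without Ctrl siLonp1 replicate 3 (0.095) and without HS siLonp1 replicate 3 (0.106). HAS3 was at 144, 149 and 149 CPM in Ctrl scramble, 109, 111 and 104 in HS and 44.5, 37.0 and 38.3 in HS+REC. Its siLonp1 libraries held 212, 209 and 202 CPM in Ctrl, 123, 136 and 139.8 in HS and 57.5, 59.7 and 70.0 in HS+REC, again with no overlap. It fell in HS (log2 fold change -0.59, SE 0.07, edgeR adjusted p = 2.0e-07) and further in recovery (log2 fold change -1.06, SE 0.07, edgeR adjusted p = 4.9e-11).

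In siLonp1, MAT2A, HPS6, C15orf39, GPR3, TIGD5, TMEM177 and CBX6 were lowest at the end of the heat and higher 1 h later. MAT2A was at 434, 434 and 428 CPM in Ctrl scramble, 178, 183 and 169 in HS and 215, 206 and 171 in HS+REC. In siLonp1 it was at 543, 550.2 and 579.5 CPM in Ctrl, 154, 148 and 149 in HS and 166, 202 and 268 in HS+REC. It fell in HS (log2 fold change -1.84, SE 0.10, edgeR adjusted p = 1.1e-12) and rose in recovery (log2 fold change 0.53, SE 0.10, edgeR adjusted p = 2.7e-04), with HS+REC replicate 3 above the other 2 and all 3 under every Ctrl library. HPS6, a gene of 1 exon for a subunit of a complex that builds lysosome-related organelles, was at 42.2, 39.9 and 38.8 CPM in Ctrl siLonp1, 8.82, 9.15 and 9.90 in HS and 22.8, 21.6 and 29.0 in HS+REC. Its rise from HS to HS+REC (log2 fold change 1.43, SE 0.11, edgeR adjusted p = 7.0e-10) was the largest among the 262 genes. C15orf39 showed the deepest fall in HS (log2 fold change -2.42, SE 0.15, edgeR adjusted p = 4.1e-12), from 81.3, 83.3 and 70.7 CPM to 12.9, 14.5 and 15.03, and stood at 29.9, 26.8 and 44.2 in HS+REC. CBX6, a Polycomb protein, fell in HS (log2 fold change -1.24, SE 0.08, edgeR adjusted p = 4.2e-12) and rose in recovery (log2 fold change 0.70, SE 0.08, edgeR adjusted p = 1.1e-07), as did TIGD5, TMEM177 and GPR3, which were under 20 CPM.

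In all, 4 of the genes had risen at the end of the heat in siLonp1, and each was lower 1 h later. TIPARP, which attaches ADP-ribose to proteins and is a target of the aryl hydrocarbon receptor, was at 79.6, 76.4 and 77.3 CPM in Ctrl scramble, 143, 139 and 141 in HS and 41.1, 44.2 and 37.7 in HS+REC. In siLonp1 it was at 93.5, 91.6 and 101 CPM in Ctrl, 126, 135 and 133 in HS and 44.3, 52.0 and 51.1 in HS+REC. It rose in HS (log2 fold change 0.51, SE 0.06, edgeR adjusted p = 4.5e-07) and fell in recovery (log2 fold change -1.39, SE 0.06, edgeR adjusted p = 1.2e-13) to a level under every Ctrl library. PROX1, a homeobox transcription factor, was at 75.2, 79.7 and 71.7 CPM in Ctrl siLonp1, 88.9, 132 and 127 in HS and 57.3, 73.1 and 57.7 in HS+REC. It rose in HS (log2 fold change 0.66, SE 0.12, edgeR adjusted p = 6.6e-05), fell in recovery (log2 fold change -0.85, SE 0.12, edgeR adjusted p = 4.3e-06), and did not differ from Ctrl in HS+REC by the test (log2 fold change -0.19, SE 0.12, edgeR adjusted p = 0.19), with overlapping libraries. That comparison was called with no filter on low counts (adjusted p = 0.027) and without HS+REC siLonp1 replicate 2 (0.0471). FRMD4A, a scaffold of cell polarity, rose in HS (log2 fold change 0.62, SE 0.08, edgeR adjusted p = 2.1e-06). The zinc finger gene ZNF587B rose by less (log2 fold change 0.29, SE 0.11, edgeR adjusted p = 0.045), and its reads may be split with near copies. That call was lost without any 1 of the 3 Ctrl or 3 HS siLonp1 libraries (adjusted p between 0.0597 and 0.16), without any 1 of the Ctrl scramble libraries or HS scramble replicate 1 (0.0504 to 0.0529), and with library size as the only scaling (0.101).

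**Figure D3:**
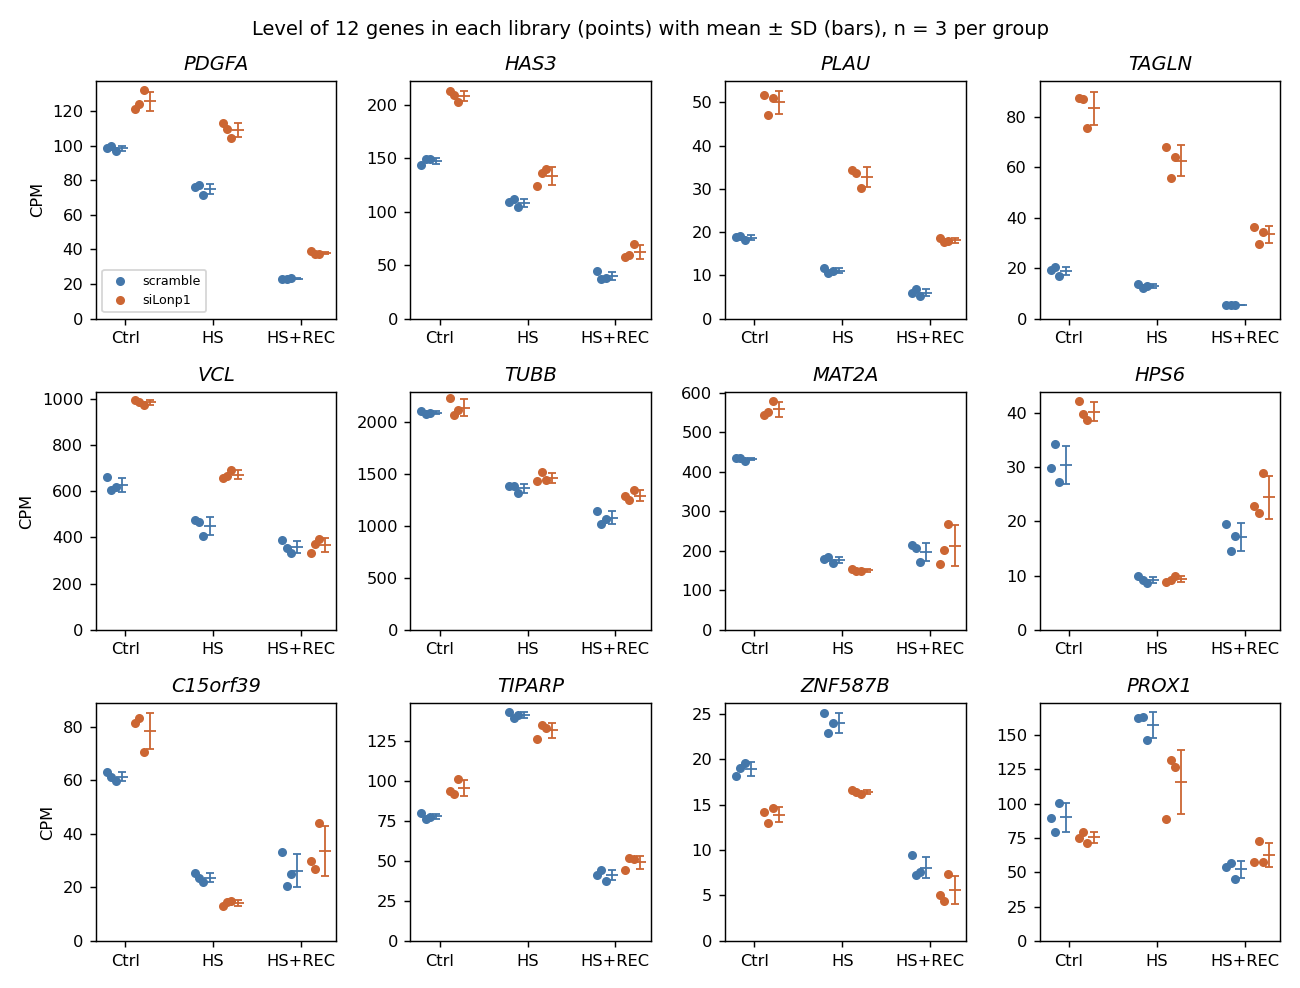
Points are the CPM of each library of 12 genes in Ctrl, HS and HS+REC (x axis), blue for scramble and orange for siLonp1, with mean ± SD as bars (n = 3). PDGFA and HAS3 step down between HS and HS+REC, MAT2A, HPS6 and C15orf39 are lowest in HS in siLonp1, and TIPARP, ZNF587B and PROX1 are highest in HS.

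To order the genes by what they do, 125 of the 262 were given 1 of 10 roles by hand after the members were known, so the groups carry counts and no test of their own, and members named without a value were picked out after their values were seen. The background for each count is that of all genes tested, 26.6% lower in HS+REC, 22.1% lower in HS, and 15.6% lower and 16.3% higher from HS to HS+REC. Of the 16 ligands and receptors, all fell in HS+REC in siLonp1 (median log2 fold change -1.05) and 14 in HS. PDGFB, the partner chain of PDGFA, was at 69.1, 61.2 and 61.0 CPM in Ctrl siLonp1 and 32.1, 29.8 and 34.7 in HS+REC (log2 fold change -0.91, SE 0.08, edgeR adjusted p = 1.2e-09). FGF3, a fibroblast growth factor, fell (log2 fold change -1.05, SE 0.08, edgeR adjusted p = 1.1e-10), as did IL23A, a subunit of interleukin 23 (log2 fold change -0.90, SE 0.07, edgeR adjusted p = 1.3e-10). TGFBR1 and ACVR1B, the type I receptors for TGF-beta and activin, fell by 1.096 and 1.06 on the log2 scale, and the WNT receptor FZD10 fell in HS and rose in recovery (log2 fold changes -1.52 and 0.50). The remaining members were FASLG, TNFRSF1B, NTSR1, GPR3, TSKU, APCDD1, RGMA, EPHA4 and SEMA4C.

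Genes of glycan metabolism and of proteins that carry glycans made the largest of these groups after the transcription factors. All 20 fell in HS+REC (median -1.01) and 19 in HS (median -0.75). Besides HAS3 they held CHPF, CHST12, CHST14 and NDST1, which polymerise or sulfate the chains of proteoglycans, and the proteoglycan cores SDC1, SDC3 and AGRN. They also held FUT4, MGAT3, B3GNT3, B4GAT1 and DAG1, which act in protein and lipid glycosylation or carry glycans at the cell surface, with HYAL2, DOLK, SLC35B2, PIGW and NANP. CHPF was at 172, 170.4 and 169.9 CPM in Ctrl siLonp1, 107, 111 and 106 in HS and 86.8, 79.7 and 89.2 in HS+REC (log2 fold change -0.92, SE 0.07, edgeR adjusted p = 1.2e-10). MOGS, the glucosidase that starts the trimming of N-glycans, had the smallest fall of the group and was at 76.8, 73.7 and 67.8 CPM in Ctrl siLonp1, 69.5, 73.9 and 73.5 in HS and 54.5, 52.4 and 59.5 in HS+REC. It did not pass the test in HS (log2 fold change 0.04, SE 0.07, edgeR adjusted p = 0.72) and fell in HS+REC (log2 fold change -0.31, SE 0.07, edgeR adjusted p = 0.0012).

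All 11 genes of actin and adhesion fell in HS+REC (median -1.11), 8 fell in HS (median -0.36) and 9 fell from HS to HS+REC. VCL was at 995, 985 and 973 CPM in Ctrl siLonp1, 657, 666 and 692 in HS and 334, 372 and 393 in HS+REC (log2 fold change -1.35, SE 0.07, edgeR adjusted p = 5.9e-14), with no overlap. ARHGAP29, a GTPase activating protein, was among the deepest falls of all 262 genes (log2 fold change -1.84, SE 0.09, edgeR adjusted p = 1.9e-14), beside OAS2, an interferon-induced enzyme that makes oligoadenylate (log2 fold change -1.89, SE 0.12, edgeR adjusted p = 8.6e-12), and ZNF792 (log2 fold change -1.92, SE 0.13, edgeR adjusted p = 2.3e-11). TAGLN, TNS4 and the myosin light chain MYL9 fell as well (1.24, 1.54 and 1.03 lower on the log2 scale). ZYX, SSH1, NEDD9, SHROOM2, MCAM and DNMBP were the other members.

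All 12 genes of mitosis, the centromere and tubulin fell in HS+REC (median -0.88), and 10 fell in HS. PLK1, a mitotic kinase, was at 222, 234 and 205 CPM in Ctrl siLonp1 and 163, 133 and 149 in HS+REC (log2 fold change -0.49, SE 0.07, edgeR adjusted p = 2.8e-06). The kinesins KIF23 and KIF11 and the spindle protein ASPM fell by 1.14, 0.71 and 0.69 on the log2 scale, and TUBB and TUBB4B by 0.65 and 0.83. All 8 genes of replication and repair fell too (median -0.86). Among them CCNE2, the cyclin that with CDK2 opens S phase, was at 42.4, 45.2 and 47.2 CPM in Ctrl siLonp1, 15.8, 13.9 and 15.5 in HS and 12.3, 15.5 and 21.3 in HS+REC. It fell in HS (log2 fold change -1.53, SE 0.13, edgeR adjusted p = 9.5e-10) and did not change in recovery by the test (log2 fold change 0.14, SE 0.13, edgeR adjusted p = 0.45). RRM2, a subunit of ribonucleotide reductase, fell by 0.58 and E2F3, a transcription factor of the G1 to S transition, by 0.93 in HS+REC.

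The 10 genes of RNA polymerase I and III and of rRNA and tRNA processing all fell in HS+REC (median -0.84). Their median in HS was already -0.85, with 9 of 10 lower, and in recovery 5 fell and 2 rose. UBTF, which activates rRNA transcription, was at 212, 209 and 207 CPM in Ctrl siLonp1, 110.0, 118 and 120.2 in HS and 102, 106 and 125 in HS+REC, and HS and HS+REC did not differ by the test (log2 fold change -0.03, SE 0.07, edgeR adjusted p = 0.80). The other members were CD3EAP, POLR3E, PWP2, RCL1, IMP3, EXOSC6, RPP25, METTL1 and WDR6. The 11 genes of mitochondrial function were TMEM177, TK2, PDP1, IBA57, SDHAF1, SLC25A32, FASTKD2, ALDH1B1, AKAP1 and PLD6, with PPARGC1B, a nuclear coactivator of genes for mitochondrial proteins. All fell in both HS (median -0.63) and HS+REC (median -0.92), among them TMEM177, which acts in the assembly of cytochrome c oxidase (log2 fold change -1.51, SE 0.16, edgeR adjusted p = 3.0e-08 in HS).

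Of the 10 genes of nutrient uptake and of methionine and polyamine metabolism, all fell in HS+REC (median -1.05). SLC2A1 was at 1147, 1098 and 1139 CPM in Ctrl siLonp1, 683, 685 and 646 in HS and 468, 449 and 538 in HS+REC (log2 fold change -1.14, SE 0.06, edgeR adjusted p = 6.9e-13). TFRC fell by 0.96 and SLC52A3 by 0.93 on the log2 scale. The rest were AMD1, which acts with MAT2A on the path from methionine to polyamines, the folate carriers SLC19A1 and SLC46A1, and SLC20A2, MFSD2A and STEAP3. RPTOR, RICTOR, FNIP1 and EEF2K, of mTOR signalling, all fell in HS+REC (median -0.96), 2 of them also in HS.

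Of 23 transcription factors and cofactors other than zinc fingers, 22 fell in HS+REC (median -0.80), 19 fell in HS and 1, PROX1, rose in HS. ARID1A, a subunit of SWI/SNF remodelling complexes, was at 214, 233 and 187 CPM in Ctrl siLonp1, 145, 187 and 189 in HS and 88.3, 104 and 125 in HS+REC (log2 fold change -0.92, SE 0.12, edgeR adjusted p = 9.0e-07), and its HS libraries overlapped with Ctrl. RUNX1 fell by 0.35, while the TGF-beta corepressor TGIF2 fell by 0.99 and the retinoic acid receptor RARA by 0.86. The others included MYB, SIN3A, CBX2, ATF5, MNT, SMAD6, FOXK1, MED11 and TAF6L.

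**Figure D4:**
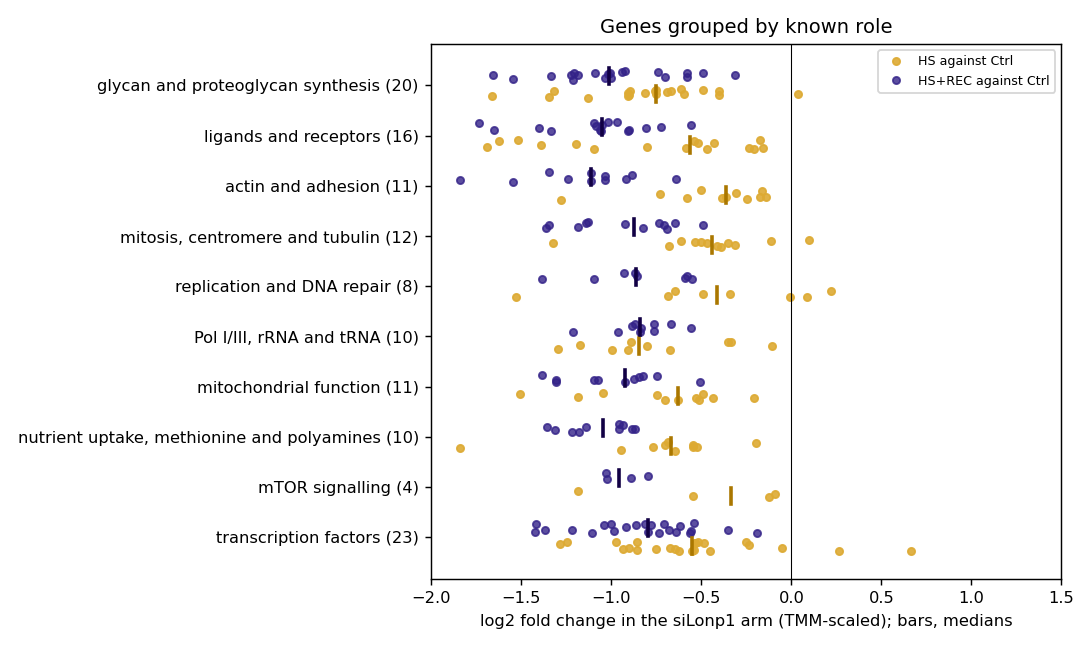
Points are genes in 10 role groups (rows, number of genes in brackets), at their log2 fold change in siLonp1 for HS against Ctrl (yellow) and HS+REC against Ctrl (dark blue), with medians as bars. All groups have HS+REC medians between -1.11 and -0.80, while the HS medians run from -0.85 to -0.34. The rule chose every gene by its HS+REC ratio in scramble, and its part in the narrower HS+REC range was not tested.

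Lists of genes by family or pathway put these members beside their relatives, and not every list was complete. Of 24 lists, 16 held at least 1 of the 262 genes and 53 of the 262 were in a list. Members made up 2.04% of all genes tested. Of 35 mitosis genes tested, 4 were members, and 22 of the 35 fell in HS+REC in siLonp1 while 2 rose, against 26.6% and 24.6% of all genes tested. Of 29 DNA replication genes listed, 18 fell and 1 rose, with RRM2 the only member. Of 36 ribosome biogenesis factors listed, 25 fell and 3 rose, with UBTF the only member. PWP2, RCL1 and IMP3, placed above with rRNA processing, were not in that list. Cytosolic ribosomal protein genes held no member, and 2 of 81 fell while 21 rose. C2H2 zinc finger genes gave 16 members out of 484 tested, yet of the 484 more rose (167) than fell (106) in HS+REC, and in HS 236 rose and 67 fell. The 16 members had a median log2 fold change of -0.89 in HS+REC, against 0.09 for the whole list. The lists of cytokines and growth factors (5 of 73) and of receptors (5 of 87) moved both ways as wholes, with 17 lower and 24 higher and with 26 lower and 23 higher. No member was found in the lists of Hippo-YAP targets, ERK feedback genes, NF-kB targets, p53 targets, clock genes, DNA repair genes or cholesterol synthesis. These lists held 15 to 39 genes each, and a count of 0 in so few genes is near a share of 2.04%. The DNA repair list was not complete and held none of the 8 members placed above under replication and repair.

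The other lists held few members. The cyclin and CDK list had 2 of 24, with 11 of the list lower and 8 higher in HS+REC, and the BMP and TGF-beta list 2 of 20, with 7 lower and 6 higher. LFNG, which glycosylates Notch receptors, was the only member of the NOTCH list and was at 25.3, 21.9 and 24.7 CPM in Ctrl siLonp1, 7.68, 8.59 and 7.67 in HS and 7.33, 7.47 and 10.2 in HS+REC. It fell in HS (log2 fold change -1.54, SE 0.10, edgeR adjusted p = 9.0e-12) and did not change in recovery by the test (log2 fold change 0.09, SE 0.10, edgeR adjusted p = 0.55). Mediator and TFIID gave 2 of 46 genes, chromatin modifiers 2 of 83, HOX, SOX, FOX and GATA factors 2 of 77, E3 ligase receptors 3 of 183, nuclear receptors 1 of 28, WNT genes 1 of 26, and snoRNA hosts and long noncoding RNAs 5 of 361. FOXO3B, among them, shares most of its sequence with FOXO3, and for the antisense members such as AGAP2-AS1 and SCAMP1-AS1 the strand setting of the counting is not given in the sources used here.

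The 262 genes spanned less of the genome and had fewer exons than the genes tested, while their transcripts were longer. A GENCODE transcript was matched to 258 of them (98.5%) and to 12578 of the 12832 genes tested (98.0%), and the canonical transcript was used. The median exon number was 6 against 9, the median span of the gene 17433 against 27079 bases, the median length of the transcript 3787 against 3245 bases, and the median GC content of the transcript 55.0% against 48.8%. The 3′ UTR had a median of 1664 bases against 1325. The AU-rich nonamer TTATTTATT was found in the 3′ UTR of 18 of 246 members (7.32%) and 1124 of 11902 genes tested (9.44%). The pentamer ATTTA stood at a median of 1.06 per kb against 1.68. The 3′ UTRs were also less rich in A or T, with medians of 51.3% and 57.4%, and the part of this was not tested. Genes of 1 exon were members in 5.38% of 353 cases, those of 2 to 3 exons in 4.10% of 1415, those of 4 to 10 exons in 1.91% of 5608 and those of more than 10 exons in 1.42% of 5202. These shares follow from the rule and carry no test.

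Exon number went with the timing of the fall. In siLonp1 the 19 members of 1 exon, such as HPS6, FZD10, TIGD5, CHST14, DOLK and the histone gene H2AFX, had a median log2 fold change of -0.97 in HS and 0.09 from HS to HS+REC. The 58 members of 2 to 3 exons had -0.76 and -0.15, the 107 of 4 to 10 exons -0.55 and -0.32, and the 74 of more than 10 exons -0.49 and -0.46. Of the 19, 17 fell in HS, and 4 fell and 6 rose in recovery. Of the 74, 56 fell in HS, and 56 fell and 2 rose in recovery. Among the other genes tested, 28.7% of those of 1 exon fell in HS, 10.2% fell and 33.5% rose in recovery, so the 6 of 19 that rose were near the share of other genes of 1 exon. Of the others of more than 10 exons, 21.8% fell in HS, 16.7% fell and 14.5% rose in recovery. The total from Ctrl to HS+REC was nearly the same in these classes, with medians of -1.002, -0.98, -0.89 and -0.96. The rule chose every member by this total in scramble, and its part in the likeness was not tested. In the other genes tested the HS medians lay between -0.02 and 0.02 in every class, and the medians from HS to HS+REC went from 0.17 with 1 exon to -0.03 with more than 10. Members of 1 exon had a median span of 2175 bases and those of more than 10 exons of 69119. Exon number and length thus went together, and their separate parts were not tested. In the classes by scramble HS ratio, the median was 3 exons and 6753 bases for the 55 genes at or under 0.6, 6 exons and 23251 bases for the 171 up to 0.9, and 10 exons and 49371 bases for the 23 up to 1.1. The 13 genes over 1.1 did not continue this order, with a median of 6 exons and 32181 bases. These orders are descriptions with no test.

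**Figure D5:**
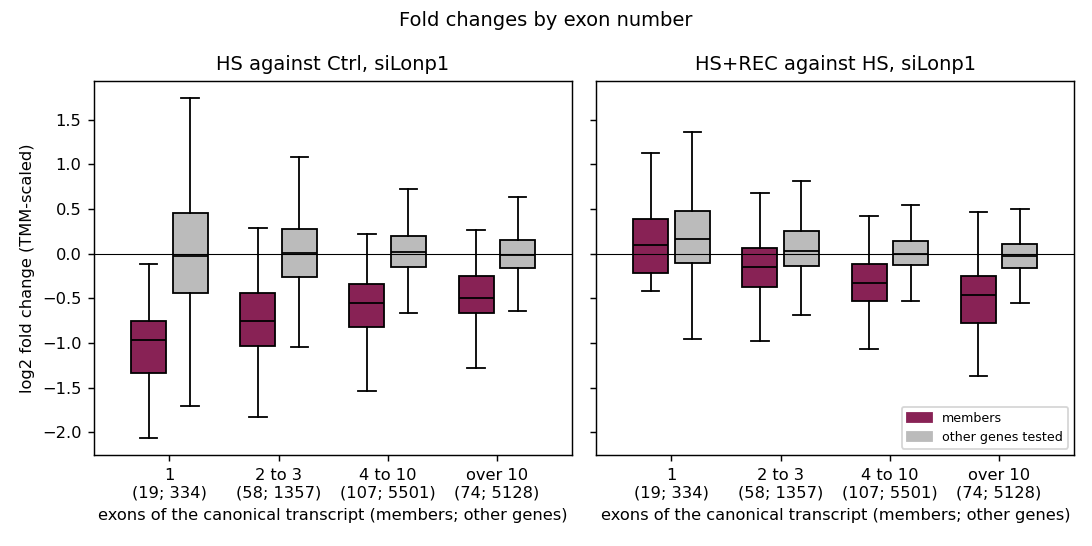
Boxes show log2 fold changes in siLonp1 (median, quartiles, whiskers to 1.5 times the interquartile range, points beyond them not drawn) by the exon number of the canonical transcript, for the members (purple) and the other genes tested (grey). Members of 1 exon have the lowest HS median (-0.97), and members of more than 10 exons the lowest median from HS to HS+REC (-0.46).

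With silencing of Lonp1, the 262 genes differed both ways in HS. Between siLonp1 and scramble, 88 were lower (33.6%, background 26.7%) and 68 higher (26.0%, background 28.1%), with a median log2 fold change of -0.05 against 0.00 for all genes tested. With library size as the only scaling, 111 were lower (42.4%, background 37.0%) and 57 higher (21.8%, background 20%, or 2562 of 12832 genes). Markers of the cells moved with it. CDX2, a transcription factor of the intestinal epithelium, was at 27.0 ± 1.01 CPM in HS scramble and 9.68 ± 0.0352 in HS siLonp1 (mean ± SD, n = 3; log2 fold change -1.38, SE 0.09, edgeR adjusted p = 4.2e-11), and it was also apart in Ctrl, at 31.1 ± 0.894 and 15.8 ± 1.20 CPM. The adhesion protein CDH1 was higher with siLonp1 in HS, at 106 ± 0.691 and 152 ± 5.55 CPM (log2 fold change 0.62, SE 0.06, edgeR adjusted p = 1.2e-08). EPCAM, KRT8, KRT18 and KRT19 were higher by 0.19 to 0.29 on the log2 scale, VIL1 did not pass the test (log2 fold change -0.00, edgeR adjusted p = 0.96), and the part of these markers in the differences was not tested. The largest differences were in TAGLN, CHPF, IL23A, PLAU and MYL9, which were higher with siLonp1. TAGLN was at 13.7, 11.9 and 13.0 CPM in HS scramble and 68.0, 55.8 and 63.9 in HS siLonp1 (log2 fold change 2.38, SE 0.09, edgeR adjusted p = 4.5e-15). PLAU was at 11.7, 10.6 and 10.97 and 34.4, 33.7 and 30.2 CPM (log2 fold change 1.66, SE 0.08, edgeR adjusted p = 2.3e-13), and CHPF and IL23A differed by 1.90 and 1.71 on the log2 scale. These genes were also apart in Ctrl, where TAGLN was at 19.3, 20.3 and 16.99 CPM in scramble and 87.4, 86.8 and 75.7 in siLonp1, a difference given without a test because the Ctrl scramble libraries chose the genes. Of the 11 genes of actin and adhesion, 7 were higher with siLonp1 in HS by the edgeR test and the other 4 did not pass it, against 28.1% of all genes tested that were higher. Other groups moved both ways or were more often lower. Of the 8 genes of replication and repair 4 were lower and the other 4 did not pass, and of the 4 genes of mTOR signalling 3 were lower, against 26.7% of all genes tested. Of the 20 glycan genes 9 were higher and 5 lower, of the 16 ligands and receptors 5 and 7, of the 12 genes of mitosis and tubulin 4 and 4, and of the 10 genes of nutrient uptake 5 and 3. The genes of RNA polymerase I and III had 1 higher and 5 lower, those of mitochondrial function 3 and 4, and the transcription factors 2 and 6.

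LOC100190940, FYCO1, FAM86JP, TMEM177 and MGAT3 were the most lowered by siLonp1 in HS. All 5 were also apart in Ctrl, again without a test, with means in scramble and siLonp1 of 8.10 and 2.60 CPM for LOC100190940, 31.2 and 17.7 for FYCO1, 5.73 and 3.13 for FAM86JP, 16.5 and 10.03 for TMEM177 and 10.7 and 5.17 for MGAT3. In each of them every Ctrl siLonp1 library lay under every Ctrl scramble library. FYCO1, an adaptor that links autophagosomes to kinesin, was at 23.8, 24.8 and 20.5 CPM in HS scramble and 8.08, 9.23 and 8.60 in HS siLonp1 (log2 fold change -1.32, SE 0.11, edgeR adjusted p = 1.3e-09). MGAT3, which adds the bisecting residue to N-glycans, was at 6.32, 7.31 and 5.78 and 2.68, 2.86 and 3.01 CPM (log2 fold change -1.09, SE 0.12, edgeR adjusted p = 1.1e-07). FAM86JP belongs to a family of near-identical copies, and its value (log2 fold change -1.30, SE 0.15, edgeR adjusted p = 3.1e-07) may include reads of the others.

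Of the 262 genes, 2 did not pass the test for a fall in HS+REC in siLonp1. Beside PROX1 this was ZBTB26, a zinc finger gene, at 5.71, 5.75 and 5.66 CPM in Ctrl, 5.53, 4.54 and 4.96 in HS and 3.998, 4.79 and 5.19 in HS+REC (log2 fold change -0.22, SE 0.11, edgeR adjusted p = 0.12). Its HS+REC libraries were all under its Ctrl libraries, and with library size as the only scaling the fall was called (adjusted p = 0.0349). In the HS+REC libraries of siLonp1, the median of the genes' log2 ratios to their Ctrl means was -1.09, -1.07 and -0.87, so replicate 3 had the smallest fall. Without it the median log2 fold change was -0.99.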

How the data were processed

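RNAseq libraries of SW620 cells, 18 in 6 groups of 3, were analysed. Per the labels and the methods, the authors made stranded mRNA libraries, aligned the reads to hg38 with STAR 2.7.3a and counted them on UCSC genes with featureCounts. The deposited values are raw counts with no normalization, for 26485 symbols. The strand setting, the handling of shared reads and any removal of PCR duplicates are not given in the sources used here, so counting error is a lower limit. Levels are CPM on the column sum. The members, lists, roles and tests were chosen with earlier results of these data known.

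The test was that of edgeR 4.0.16 (R 4.3.3) on the 12832 genes that passed 1 CPM in 3 or more libraries (TMM factors, 1 quasi-likelihood model over the 18 libraries, prior count 0.125, Benjamini-Hochberg over all genes). Log2 fold changes are on the TMM scale, with SE taken as the size of the log2 fold change over the root of the F statistic. The script was tested on simulated counts. Genes were named by rule: in the scramble arm the 12 lowest HS+REC ratios, the 8 highest Ctrl levels and the 3 on each side of the limit. In siLonp1 they were the 6 deepest falls in HS and in HS+REC, the 5 smallest falls in HS+REC, and the 5 largest falls and rises in recovery. To these came the 5 largest differences between the arms in HS each way and up to 6 members per list. Exons, spans and 3′ UTRs are from GENCODE v44 (hg38) and promoters from RefSeq (GRCh38.p14).

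Replicates of a group differed by more than counting error (chi-square per degree of freedom 3.48 to 25.8 over genes of at least 20 counts). Alternatives were RLE factors, library size only, other filters, DESeq2 1.42.0, a block for the replicate number, fits on the compared groups alone, an FDR of 0.01, other limits of the rule and each library left out.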

Additional observations from a re-analysis of the deposited data

Results flagged for a closer look

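In 3 of the 262 genes every HS library lay above every Ctrl library in 1 arm and under every Ctrl library in the other (1.15%), as in 0.647% of all genes tested. The zinc finger gene ZNF799 had an HS to Ctrl ratio of mean CPM of 0.866 in siLonp1 and of 1.21 in scramble. ZNF296, also a zinc finger gene, had a ratio of 0.733 in siLonp1 and of 1.27 in scramble. The antisense gene SCAMP1-AS1 went the other way, with 1.07 in siLonp1 and 0.808 in scramble. The highest level of the 3 genes in any library was 13.2 CPM, in SCAMP1-AS1, and the difference between the arms was not tested.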

How the results depend on the processing

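Of 266 alternatives for 10 counts, medians and the LONP1 test, 255 stayed within 1.5 times the count, within 1 SD between replicates of the median or on the same side of the test's threshold, and 11 did not. With a ratio limit of 0.5 there were 85 members, of which 85 fell in HS+REC and 75 in HS, 49 fell and 9 rose in recovery, and 25 were lower and 24 higher with siLonp1 in HS; the medians were -1.10 in HS+REC and -0.78 in HS. The lower counts follow from the smaller group, and the cause of the deeper medians was not tested. The HS median was -0.64 with library size as the only scaling, which moved the median of all genes by -0.05 in HS and -0.08 in HS+REC. Choosing the members on TMM-scaled CPM left 175, all among the 262, of which 175 fell in HS+REC and 151 in HS, with an HS median of -0.65. Leaving out 1 library gave 236 to 314 members (314 without HS+REC scramble replicate 1, 254 of them shared), 259 to 261 lower in HS+REC and 204 to 215 in HS, 132 to 155 lower and 16 to 22 higher in recovery, and 77 to 95 lower and 61 to 69 higher with siLonp1. The medians ran from -0.99 to -0.90 in HS+REC and from -0.62 to -0.58 in HS, and LONP1 from -4.26 to -4.15.

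Same-numbered libraries did not deviate together (correlations of -0.417 to 0.534 over 45 pairs, 6 of 18 libraries closest to their own number). With the replicate number as a block, 260 fell in HS+REC and 214 in HS, 146 fell and 20 rose in recovery, 86 were lower and 67 higher with siLonp1, the medians were -0.92 and -0.59, and LONP1 was -4.19. Of 3976 alternatives for the log2 fold changes of named genes, 3946 kept their side of the threshold, 19 lost and 11 gained a call, and 0 reversed. Calls gained in HS were those of SEMA4C, FOXO3B, ARID1A and EXOC3-AS1, and the cause was not tested. The lowest count of a member in any library was 42.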
